A study of Mus musculus with 8 samples.

Results

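Extracellular ATP and UTP act on cells through P2X ion channels and G protein-coupled P2Y receptors, and surface enzymes break ATP down to AMP and then to adenosine, which has receptors of its own. Entpd1 (CD39) and Entpd2 take phosphates off ATP, and Nt5e (CD73) makes adenosine from AMP. In the uterus these signals are known to act on smooth muscle contraction, on epithelial secretion and on immune cells. The genes described here are 10 of the 52308 in the count table: the P2Y receptor genes P2ry14, P2ry2 and P2ry6, the P2X channel genes P2rx4 and P2rx7, the enzyme genes Entpd1, Entpd2 and Nt5e, and the adenosine receptor genes Adora1 and Adora2b. They were chosen by their place in this pathway, with their levels over the 4 stages already known. Their levels, fold changes and calls are therefore given as a description of these libraries and serve as no independent test.

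The RNA came from the uterus of female mice of the outbred ICR stock, aged 6 to 8 weeks, in proestrus, estrus, metestrus or diestrus. The labels name no treatment, and strain, age, sex and tissue are the same in all groups. The stage was read from vaginal smears, and the labels give no hormone levels. Each stage has 2 libraries, 8 in all. Whether the libraries of a stage are separate animals is not said, so a p-value sets a difference against a spread between libraries that may be technical. Levels are in CPM, counts scaled to the normalised library size, and a change is the log2 fold change ± SE of an edgeR fit to all 8 libraries, with p adjusted over all 18114 tested genes by the Benjamini-Hochberg method and called under 0.05.

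Library totals ran from 17863546 to 21896786 counts. The uterine label was checked on marker sums: 6 stroma genes had 4815 to 15080 CPM, 6 smooth muscle genes 6324 to 16510 CPM, and 6 ovary genes at most 0.855 CPM. Diestrus library 1 stood apart from library 2, with 5 uterine gland genes at 7570 against 56.2 CPM and the smooth muscle genes at 16510 against 6324 CPM. The gland sum of library 1 was almost all Prss29 (5509 against 0.0504 CPM in library 2) and Prss28 (2039 against 0 CPM). Lif was also higher in library 1 (4.68 against 2.98 CPM). Cxcl15 (2.20 against 35.8 CPM) and Foxa2 (14.3 against 17.4 CPM) were lower there. Of genes tested, 2713 lay over 2-fold apart between these libraries, against 837 to 1448 in the other stages. The 4 liver genes Alb, Apoa1, Ttr and Serpina1a summed to 100.4 and 1.24 CPM in proestrus and to 762 and 584 CPM in estrus. They summed to at most 0.599 CPM in metestrus and 3.48 CPM in diestrus. In bulk RNA, fewer cells of a type and less RNA per cell cannot be told apart.

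P2ry14, the receptor for UDP-glucose and other UDP-sugars, alternated from stage to stage and had the widest range of the 10 genes. It had 230.5 and 268 CPM in proestrus, 29.4 and 19.0 CPM in estrus, 126.5 and 191.5 CPM in metestrus, and 8.73 and 16.4 CPM in diestrus. Both libraries of proestrus and of metestrus lay above all 4 libraries of estrus and diestrus. P2ry14 fell to a mean of 24.2 ± 7.37 CPM in estrus, against 249.5 ± 26.8 CPM in proestrus (SD, n = 2 each; log2 fold change -3.36 ± 0.38, adjusted p = 0.00532 by edgeR). It rose to 159 ± 46.0 CPM in metestrus, against 24.2 CPM in estrus (2.72 ± 0.37, adjusted p = 0.00373). It fell again to 12.6 ± 5.45 CPM in diestrus, against 159 CPM in metestrus (-3.66 ± 0.39, adjusted p = 0.0303 by edgeR). Proestrus over diestrus gave the widest difference, 4.31 ± 0.40 (adjusted p = 0.00183).

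The order of P2ry14 was proestrus, metestrus, estrus and diestrus. Neither the 2 high stages nor the 2 low stages differed past the threshold. Metestrus against proestrus gave -0.65 ± 0.35 (adjusted p = 0.234), and estrus against diestrus gave 0.95 ± 0.36 (adjusted p = 0.105). The estrus to diestrus difference passed without diestrus library 2 (0.0337), by DESeq2 (0.0355) and with no filter on low counts (0.0487). The call between diestrus and metestrus ended when any 1 library of proestrus, estrus or metestrus was left out (adjusted p from 0.0687 to 0.225) and in a fit to the 4 libraries of that pair (0.212), while its log2 fold change stayed between -4.19 and -3.28. The 6 stroma genes summed to 12470 and 15080 CPM in proestrus and to 7812 and 4815 CPM in estrus. They summed to 15010 and 10010 CPM in metestrus and to 11330 and 12210 CPM in diestrus. Col1a1 and Col3a1 made up most of these sums. Of the 6 genes, 1 was called lower in estrus than in proestrus and 0 higher. The means of Col1a1, Col3a1 and Hoxa11 were lower in estrus than in proestrus. Those of Pdgfra (262 CPM in proestrus and 431 CPM in estrus), Hoxa10 and Vim were higher in estrus. The 5 markers of the stratified epithelium of cervix or vagina (Krt5, Krt14, Krt13, Krt6a and Trp63) were low and summed to 6.67 and 12.2 CPM in proestrus, 1.15 and 0.723 CPM in estrus, 2.99 and 2.22 CPM in metestrus, and 1.35 and 2.67 CPM in diestrus. All 4 of them that were tested were called lower in estrus than in proestrus, with a ratio of the mean sums of 0.0995, beside a fold change of 0.0971 for P2ry14. The later steps were less alike. In metestrus over estrus the ratio was 2.78, with 1 of the markers called higher, beside a fold change of 6.57 for P2ry14. In diestrus over metestrus the ratio was 0.771, with 0 called, while the mean of P2ry14 went from 159 to 12.6 CPM. The part of either cell type in the fall of P2ry14 was not tested.

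P2ry14 (ENSMUSG00000036381) lies on the minus strand of chromosome 3, from 59113855 to 59153618 in GRCm38. P2ry13 and P2ry12, receptors for ADP, are its relatives on the same strand, 54273 and 62653 bases away. P2ry13 stood between 2.08 and 3.75 CPM over the 8 libraries (adjusted p = 0.807 across the stages by edgeR) and P2ry12 between 2.13 and 7.70 CPM (adjusted p = 0.295), so neither relative was called. The bases just before the first annotated exon of P2ry14 are shown because this gene moved most. They are from RefSeq (GRCm38.p6, chr3:59153619-59153742, minus strand, 5′ to 3′). Capitals mark an estrogen response element half-site (GGTCA or TGACC) and an AP-1 match (TGANTCA).
P2ry14: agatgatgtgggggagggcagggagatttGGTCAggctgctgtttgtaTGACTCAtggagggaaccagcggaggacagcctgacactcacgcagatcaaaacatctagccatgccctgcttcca

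**Figure D1:**
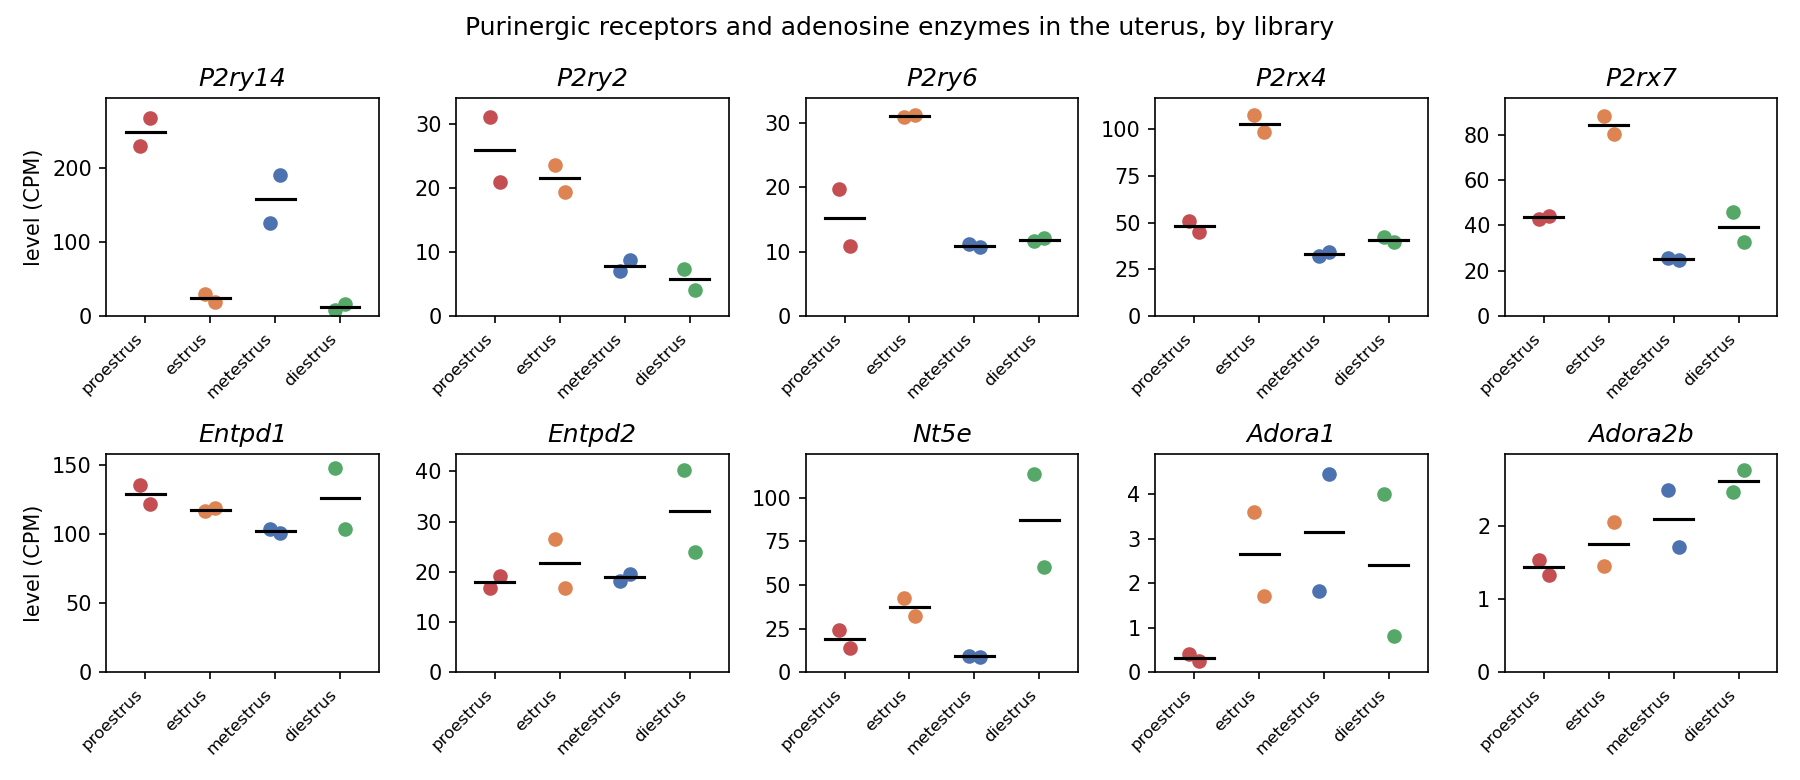
Level of each of the 10 genes in CPM on a linear axis from 0, by stage; each point is 1 library and each bar the mean of the 2 libraries of a stage. P2ry14 is high in proestrus and metestrus, P2ry6, P2rx4 and P2rx7 are highest in estrus, and Nt5e is highest in diestrus at 113.6 and 60.2 CPM.

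P2ry2, a receptor for ATP and UTP known from epithelia, was higher in proestrus and estrus than in metestrus and diestrus. Its levels were 31.1 and 20.9 CPM in proestrus, 23.7 and 19.5 CPM in estrus, 7.01 and 8.77 CPM in metestrus, and 7.38 and 4.08 CPM in diestrus. The first 4 of these libraries all lay above the last 4. P2ry2 was lower in metestrus than in estrus by a log2 fold change of -1.45 ± 0.33 (adjusted p = 0.0170 by edgeR) and lower in metestrus than in proestrus (-1.72 ± 0.33, adjusted p = 0.0195). Against diestrus it was higher in proestrus and in estrus, by 2.18 ± 0.34 in proestrus (adjusted p = 0.00744) and by 1.91 ± 0.34 in estrus (adjusted p = 0.0110). Estrus against proestrus (-0.27 ± 0.32, adjusted p = 0.594) and diestrus against metestrus (-0.46 ± 0.33, adjusted p = 0.492) did not pass, and their libraries overlapped.

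The call of P2ry2 between metestrus and estrus ended without any single library of those stages (0.0509 to 0.101). The call between metestrus and proestrus ended without proestrus library 1 or either metestrus library (0.104 to 0.122), and that between estrus and diestrus without estrus library 1 (0.0632). With only the 4 libraries of the pair, the proestrus to diestrus difference had an adjusted p of 0.0576. Epithelial genes moved alongside: the 6 markers Epcam, Cdh1, Krt8, Krt18, Krt19 and Cldn4 summed to 4463 and 3613 CPM in proestrus and to 3306 and 2792 CPM in estrus. They summed to 1107 and 1058 CPM in metestrus and to 765 and 1009 CPM in diestrus. All 6 were called across the stages, and 5 of 6 were lower in metestrus than in proestrus. Their part in the change of P2ry2 was not tested.

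P2rx4 and P2rx7 encode ATP-gated cation channels known from macrophages, and both were highest in estrus. P2rx7 is known for its part in inflammasome activation. P2rx4 had 51.2 and 45.1 CPM in proestrus, 107 and 98.7 CPM in estrus, 32.1 and 34.1 CPM in metestrus, and 42.3 and 39.4 CPM in diestrus. P2rx7 had 42.9 and 44.3 CPM in proestrus, 88.4 and 80.3 CPM in estrus, 25.6 and 24.7 CPM in metestrus, and 46.1 and 32.6 CPM in diestrus. For both genes the estrus libraries lay above all others and the metestrus libraries below all others. P2rx4 rose to 103 ± 6.19 CPM in estrus, against 48.1 ± 4.29 CPM in proestrus (log2 fold change 1.10 ± 0.11, adjusted p = 0.00422 by edgeR), and P2rx7 to 84.4 ± 5.77 CPM in estrus, against 43.6 ± 0.991 CPM in proestrus (0.95 ± 0.17, adjusted p = 0.0169). In metestrus against estrus, P2rx4 fell by 1.64 ± 0.11 (adjusted p = 0.000882) and P2rx7 fell by 1.75 ± 0.17 (adjusted p = 0.00182).

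Estrus also stood above diestrus by 1.33 ± 0.11 for P2rx4 (adjusted p = 0.00153 by edgeR) and by 1.10 ± 0.17 for P2rx7 (adjusted p = 0.00710). Metestrus stood below proestrus, with -0.54 ± 0.11 for P2rx4 (adjusted p = 0.0242) and -0.79 ± 0.17 for P2rx7 (adjusted p = 0.0259). Between proestrus and diestrus neither gene passed (0.24 ± 0.11 and 0.15 ± 0.17, adjusted p = 0.180 and 0.571). The same holds for diestrus against metestrus (0.30 ± 0.11 and 0.65 ± 0.17, adjusted p = 0.241 and 0.160), although P2rx7 passed there without diestrus library 2 (0.00999) and by DESeq2 (0.0439). The metestrus to proestrus call of P2rx4 ended without proestrus library 1 or either metestrus library (0.117 to 0.151). That of P2rx7 ended without any single library of proestrus, estrus or metestrus (0.0518 to 0.152). The estrus to proestrus call of P2rx7 ended without any single library of either stage (0.0703 to 0.0991), and its estrus to diestrus call without estrus library 1 (0.05004).

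P2rx7 (ENSMUSG00000029468, chromosome 5, 122643911 to 122691432) and P2rx4 (ENSMUSG00000029470, chromosome 5, 122707544 to 122729738) are neighbours on the plus strand, 16111 bases apart. Because these neighbours had a like course over the stages, the bases before each gene's first annotated exon are given, from RefSeq (GRCm38.p6, plus strand, 5′ to 3′), at chr5:122643677-122643910 and chr5:122707294-122707543. Capitals mark the half-site, the AP-1 match and the GC box (GGGCGG or CCGCCC). In P2rx7 the GC box and the half-site adjoin as 1 run of capitals.
P2rx7: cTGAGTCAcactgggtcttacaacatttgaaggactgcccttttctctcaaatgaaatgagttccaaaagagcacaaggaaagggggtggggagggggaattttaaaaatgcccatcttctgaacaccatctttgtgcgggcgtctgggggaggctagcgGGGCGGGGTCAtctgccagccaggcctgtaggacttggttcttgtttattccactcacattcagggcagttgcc
P2rx4: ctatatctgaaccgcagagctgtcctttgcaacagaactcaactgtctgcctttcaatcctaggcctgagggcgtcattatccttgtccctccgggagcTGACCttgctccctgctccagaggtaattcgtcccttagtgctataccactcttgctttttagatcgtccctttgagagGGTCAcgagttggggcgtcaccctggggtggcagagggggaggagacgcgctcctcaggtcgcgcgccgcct

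Of the 10 genes, all but P2ry6 matched the RefSeq promoter table, 9 in all. In the 250 bases before the first listed start, searched on both strands, a half-site stood in P2ry14, P2ry2, P2rx4 and P2rx7, which is 4 of 9 genes. Of all 32851 windows of that length in the table, 35.2% held one. A full estrogen response element, GGTCA and TGACC with 3 bases between them, stood in none of the 9 and in 0.0639% of all windows. It contains the half-site, so its matches are counted under both. An AP-1 match stood in P2ry14, P2rx7, Entpd2 and Adora1, against 6.75% of all windows. A GC box stood in 6 of the 9 genes, against 32.7% of all windows. None of the 9 held a progesterone response element (GNACA and TGTNC with 3 bases between them) or a TATA box (TATAAA), which 0.387% and 12.4% of all windows held. The first listed starts of P2ry2 and Nt5e lie 813 and 412 bases inside the annotated gene. P2ry14, P2ry2, P2rx7, Entpd1 and Adora1 have further listed starts, which were not counted. Among these, start 4 of P2ry14 had a TATA box, and start 2 of Adora1 had neither an AP-1 match nor a GC box. All of these are matches of letters and not sites known to be used.

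P2ry6, a receptor for UDP that is also known from macrophages, shared the peak in estrus. It had 19.6 and 10.9 CPM in proestrus, 30.8 and 31.2 CPM in estrus, 11.2 and 10.7 CPM in metestrus, and 11.6 and 12.1 CPM in diestrus. The estrus libraries lay above the other 6, while the proestrus libraries were far apart. P2ry6 in estrus was higher by 1.02 ± 0.26 than in proestrus (adjusted p = 0.0463 by edgeR) and by 1.39 ± 0.27 than in diestrus (adjusted p = 0.0137). In metestrus, against estrus, it fell by 1.51 ± 0.27 (adjusted p = 0.00773). Proestrus, metestrus and diestrus did not differ past the threshold (adjusted p from 0.238 to 0.849).

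The calls of P2ry6 depended on which libraries were kept. Its adjusted p across the 4 stages, 0.0133, rose to between 0.0512 and 0.0732 without estrus library 1, estrus library 2 or metestrus library 2. The estrus to proestrus call ended without proestrus library 2 or any single library of estrus or metestrus (0.089 to 0.167) and with only the 4 libraries of the pair (0.0673). The metestrus to estrus call ended without either metestrus library (0.0512 and 0.0598) and the estrus to diestrus call without either estrus library (0.0640 and 0.0685). Without proestrus library 2, P2ry6 was called higher in proestrus than in diestrus (0.0466) and lower in metestrus than in proestrus (0.0388). P2ry6 (chromosome 7, 100937630 to 100974649) and P2ry2 (chromosome 7, 100996568 to 101012866) lie on the minus strand with 21918 bases between them. P2ry6 was called higher in estrus than in proestrus, whereas P2ry2 did not pass in that pair; the difference between the genes was not tested.

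Macrophage genes were also highest in estrus. The 6 markers Adgre1, Csf1r, Cd68, Mrc1, C1qa and C1qb summed to 487 and 312 CPM in proestrus, 987 and 1049 CPM in estrus, 382 and 344 CPM in metestrus, and 334 and 387 CPM in diestrus. Of the 6, 4 were called higher in estrus than in proestrus, all 6 lower in metestrus than in estrus, and all 6 higher in estrus than in diestrus. The ratio of the mean sums was 2.55 for estrus over proestrus. The fold change over the same stages was 2.14 for P2rx4, 1.94 for P2rx7 and 2.03 for P2ry6. None of the 6 macrophage markers was at 0 in all libraries. Other marker sums were also higher in estrus than in proestrus. The widest ratio was that of the 4 liver genes (13.2), with 0 of them called in that pair. Sums of T or NK cells (ratio 2.07), B or plasma cells (2.07) and red blood cells (1.87) were among the others. The sums of epithelium (0.755) and stroma (0.458) were lower. The part of macrophages or other cells in the estrus peak of the receptors was not tested.

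**Figure D2:**
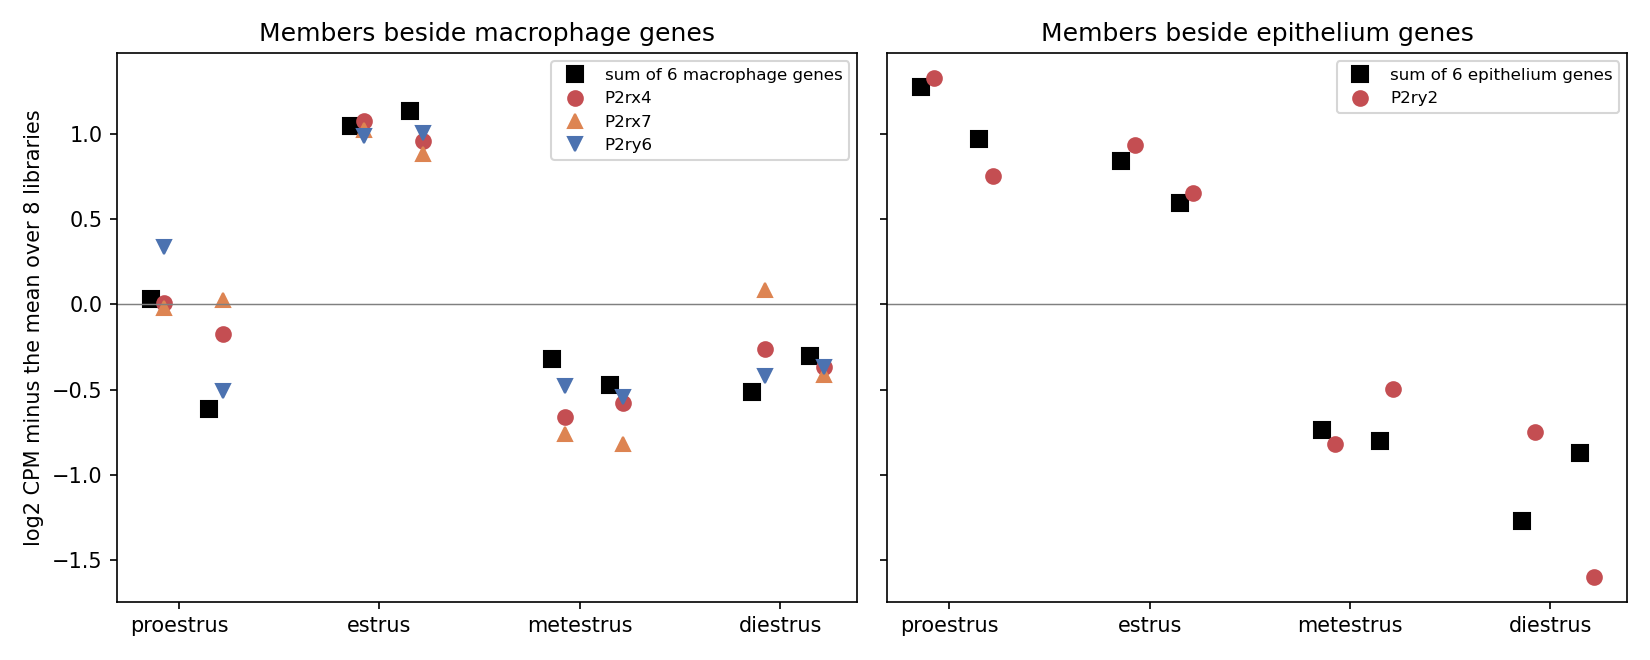
Log2 CPM minus its mean over the 8 libraries, by stage, with 2 libraries per stage; squares are the sum of 6 marker genes and the other symbols are single genes. P2rx4, P2rx7 and P2ry6 lie between 0.88 and 1.08 in estrus, where the macrophage sum lies at 1.05 and 1.14, and P2ry2 is above 0 in proestrus and estrus, as the epithelial sum is.

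Scaled by exon length, the 5 P2 receptor genes changed places over the cycle. P2ry14 had 22.6 CPM per kb in proestrus and 14.4 in metestrus, which is 46.4% and 49.4% of the summed level of the 5 genes in those stages. In estrus and diestrus its share was 4.64% and 5.95%. There P2rx4 and P2rx7 each made up more than P2ry14. P2rx4 held 31.1% of the sum in estrus and 30.5% in diestrus, and P2rx7 held 29.9% in estrus and 34.5% in diestrus. The sum itself was 48.6 CPM per kb in proestrus and 47.2 CPM per kb in estrus, then 29.1 CPM per kb in metestrus and 19.1 CPM per kb in diestrus. The exon length is that of all annotated exons of a gene joined, so a gene whose uterine transcripts use only part of them is understated.

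**Figure D3:**
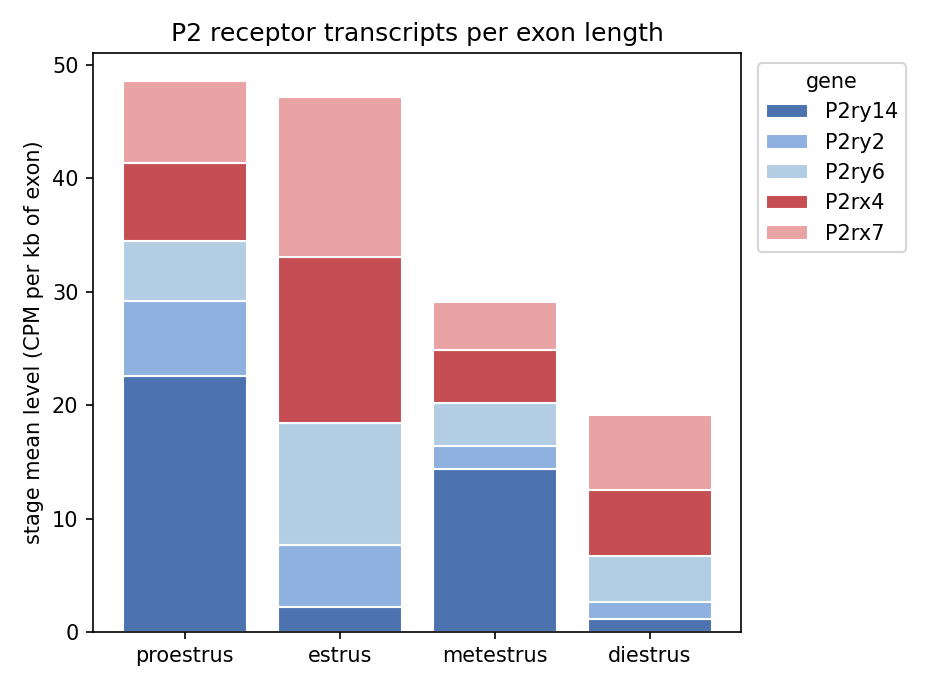
Stage mean level of 5 P2 receptor genes in CPM per kb of annotated exon, stacked from 0, for each of the 4 stages (mean of 2 libraries). The sums of proestrus (48.6) and estrus (47.2) are close, with P2ry14 the largest part in proestrus and P2rx4 and P2rx7 the largest in estrus.

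Among the enzymes, Nt5e (CD73), which makes adenosine from AMP, changed with the stage (adjusted p = 0.00523 across the stages by edgeR). It lies on the plus strand of chromosome 9, from 88327197 to 88372092. It had 24.0 and 13.8 CPM in proestrus, 42.3 and 32.3 CPM in estrus, 9.51 and 8.90 CPM in metestrus, and 113.6 and 60.2 CPM in diestrus. No libraries of different stages overlapped, in the order diestrus, estrus, proestrus and metestrus. Nt5e rose to 86.9 ± 37.8 CPM in diestrus, against 9.20 ± 0.432 CPM in metestrus (SD, n = 2 each; log2 fold change 3.24 ± 0.39, adjusted p = 0.0361 by edgeR). It was lower in proestrus than in diestrus (-2.20 ± 0.38, adjusted p = 0.00977) and lower in metestrus than in estrus (-2.02 ± 0.38, adjusted p = 0.00925). Neighbours in the order did not pass: estrus against diestrus gave -1.22 ± 0.36 (adjusted p = 0.0522), estrus against proestrus 0.98 ± 0.37 (adjusted p = 0.115) and metestrus against proestrus -1.04 ± 0.37 (adjusted p = 0.104).

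The largest difference of Nt5e, diestrus over metestrus, lost its call when any 1 library of proestrus, estrus or metestrus was left out (0.0723 to 0.342) and with only the 4 libraries of the pair (0.212). Its log2 fold change stayed between 2.70 and 3.63. The metestrus to estrus call ended without estrus library 1 or either metestrus library (0.0541 to 0.0683), and the proestrus to diestrus call with the 4 libraries of the pair (0.0677). The estrus to diestrus difference passed without diestrus library 2 (0.0148), without either proestrus library (0.0472 each), by DESeq2 (0.00654) and with no filter on low counts (0.0131). Estrus against proestrus and metestrus against proestrus passed without either diestrus library (0.0375 to 0.0412), and metestrus against proestrus also by DESeq2 (0.0359) and with no filter (0.0475). Diestrus library 1, the higher in Nt5e, is the one with high smooth muscle genes and high Prss28 and Prss29, but not with all gland genes high. Diestrus library 2, at 60.2 CPM with gland genes at 56.2 CPM, also lay above all libraries of the other stages, and the part of gland or muscle cells was not tested.

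Entpd1 (CD39; chromosome 19, 40612366 to 40741602, plus strand), which turns ATP and ADP into AMP, was the steadiest of the 10 genes. It had 135 and 122 CPM in proestrus, 117 and 118.5 CPM in estrus, 103 and 101 CPM in metestrus, and 148 and 103.5 CPM in diestrus. Its highest stage mean was 1.26 times its lowest, and no difference passed (adjusted p = 0.367 across the stages by edgeR). Log2 fold changes between stages ran from -0.33 ± 0.17 for metestrus over proestrus to 0.30 ± 0.17 for diestrus over metestrus. Without diestrus library 2, Entpd1 passed across the stages (0.0289) and in both of these pairs (0.0428 and 0.0353). That fit keeps only the higher of the 2 diestrus libraries. Scaled by exon length, Entpd1 was the most abundant of the 10 genes over all 8 libraries, at 21.2 CPM per kb.

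Entpd2 (chromosome 2, 25395874 to 25401321, plus strand), which acts on ATP more than on ADP, had 16.9 and 19.1 CPM in proestrus, 26.6 and 16.9 CPM in estrus, 18.2 and 19.6 CPM in metestrus, and 40.2 and 24.0 CPM in diestrus. Both diestrus libraries lay above those of proestrus and metestrus, while the other stage pairs overlapped, and no pair passed (adjusted p = 0.138 across the stages by edgeR). Without diestrus library 2 it passed across the stages (0.0310), in diestrus over metestrus (0.0481) and in proestrus over diestrus (0.0231). That fit keeps only the higher of the 2 diestrus libraries. Proestrus over diestrus, which gave -0.84 ± 0.30, also passed by DESeq2 (0.0495). Of the exon bases of Entpd2, 28.8% are shared on the same strand with Npdc1, so its count is uncertain. Npdc1 stood between 107.6 and 143.8 CPM and was not called across the stages (adjusted p = 0.580).

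The adenosine receptor genes were the lowest of the 10 when scaled by exon length, Adora1 at 0.369 and Adora2b at 1.07 CPM per kb over all 8 libraries, with 368 and 332 counts in all. Adora1 (chromosome 1, 134199223 to 134235431, minus strand), which couples to inhibitory G proteins, had 0.410 and 0.248 CPM in proestrus, 3.60 and 1.70 CPM in estrus, 1.83 and 4.45 CPM in metestrus, and 4.004 and 0.807 CPM in diestrus. The proestrus libraries, with 8 and 5 counts, lay below the other 6, which overlapped. Across the stages Adora1 was not called (adjusted p = 0.101 by edgeR), but it passed by DESeq2 (0.0248), with no filter on low counts (0.0342) and without diestrus library 1 (0.0234) or 2 (0.0240). The differences from proestrus were large and did not pass: 2.99 ± 0.94 for estrus over proestrus (adjusted p = 0.0760 by edgeR), 3.23 ± 0.93 for metestrus over proestrus (adjusted p = 0.0592) and -2.86 ± 0.93 for proestrus over diestrus (adjusted p = 0.0719). DESeq2 called all 3 (adjusted p = 0.0125, 0.00503 and 0.0144), and so did edgeR with no filter on low counts (0.0276, 0.0168 and 0.0266). Without diestrus library 2 all 3 passed too (0.0226, 0.0165 and 0.0168), and without diestrus library 1 the estrus and metestrus differences from proestrus passed (0.0221 and 0.0156).

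Of the exon bases of Adora1, 20.1% lie on the opposite strand of Mybph, a muscle gene at 0 to 1.55 CPM in the 8 libraries. Mybph was highest in estrus, at 1.55 and 1.08 CPM, and was called across the stages (adjusted p = 0.0223 by edgeR), in metestrus over estrus (0.0138) and in estrus over diestrus (0.0256). How strand was used in counting is not stated, so reads of the pair may not be told apart. Adora2b (chromosome 11, 62248984 to 62266453, plus strand), a low-affinity receptor that couples to stimulatory G proteins, had 1.54 and 1.34 CPM in proestrus, 1.45 and 2.06 CPM in estrus, 2.50 and 1.71 CPM in metestrus, and 2.47 and 2.77 CPM in diestrus. Its widest difference was -0.86 ± 0.34 for proestrus over diestrus (adjusted p = 0.114), and none passed. Adora2b had between 27 and 56 counts per library, and the unadjusted p of that difference was 0.0386.

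All 10 genes passed the filter on low counts. Across the stages 6 of the 10 were called, beside 39.1% of all tested genes: P2ry14, P2ry2, P2ry6, P2rx4, P2rx7 and Nt5e, with adjusted p from 0.001275 for P2rx4 to 0.0133 for P2ry6 by edgeR. Adora1, Entpd1 and Entpd2 passed under the alternatives given beside their values. By pair, 4 were called in estrus over proestrus (3 higher and 1 lower; 15.1% of all tested genes) and 6 in metestrus over estrus (1 higher and 5 lower; 36.2%). In diestrus over metestrus 2 were called (1 higher and 1 lower), beside 0.508% of all genes, and in proestrus over diestrus 3 (2 higher and 1 lower), beside 22.4%. Estrus over diestrus gave 4 calls, all higher, beside 23.8%, and metestrus over proestrus 3, all lower, beside 16.9%. The median size of the 10 log2 fold changes was 1.48 in metestrus over estrus, beside 0.56 over all tested genes, and 0.42 in diestrus over metestrus, beside 0.29. Since the genes were selected with these levels known, nothing is read from these shares. The libraries of both stages did not overlap in any of the 22 pairwise calls, nor in 21 of the differences that were not called, of 60 in all. The like share over all tested genes was not counted, so nothing is read from these numbers either.

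A further 32 genes of the same pathway were listed by role: other receptors, other nucleotide-hydrolysing enzymes, genes of adenosine removal and transport, and genes of ATP release. Of these 28 were tested and 12 were called across the stages (42.9%), near the 39.1% of all genes. The 4 not tested, P2ry4, Entpd4, Slc28a1 and Panx3, had 6 counts or fewer in all. For Entpd4 the count is uncertain, since a copy, Entpd4b, is annotated with equal exon length on the same chromosome. By role, 4 of 8 tested enzyme genes were called and 6 of 7 in adenosine removal and transport, beside the 39.1% of all genes. The groups are small and some uncalled genes had few counts, so nothing is read from the shares by role. Of 5 other P2X genes 2 were called, and of 3 P2Y, 2 adenosine receptor and 3 ATP release genes tested none was called across the stages by edgeR. P2ry1, a receptor for ADP, came nearest (adjusted p = 0.0546) and passed by edgeR without any single library of proestrus or diestrus (0.0352 to 0.0478). In single pairs P2ry1 was called lower in estrus than in diestrus and higher in metestrus than in estrus, and both calls ended without single libraries (0.0637 to 0.151).

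Alpl, the tissue-nonspecific alkaline phosphatase, which can also make adenosine from AMP, ran from high to low in the order of the stages. It had 936 and 537 CPM in proestrus, 435 and 224 CPM in estrus, 44.7 and 43.4 CPM in metestrus, and 21.7 and 12.4 CPM in diestrus. Proestrus lay above diestrus by 5.43 ± 0.50 (adjusted p = 0.00174 by edgeR), and Alpl was lower in metestrus than in estrus (-2.90 ± 0.44, adjusted p = 0.00496). Alpl did not pass in estrus over proestrus (adjusted p = 0.105 by edgeR) or in diestrus over metestrus (adjusted p = 0.197). Its metestrus to proestrus call (-4.06 ± 0.47, adjusted p = 0.00512) ended without either metestrus library (0.0567 and 0.0648). Nt5e, which also makes adenosine from AMP, had its highest mean in diestrus, where Alpl had its lowest. Enpp3, a surface enzyme that cuts ATP, was lowest in metestrus at 49.3 and 72.1 CPM, against 175 to 331 CPM in the other 6 libraries, and its call across the stages (adjusted p = 0.00893) ended without metestrus library 1 (0.0547). Enpp1, of the same family, stood at 14.1 and 18.3 CPM in proestrus, against 42.0 and 43.3 CPM in diestrus (-1.40 ± 0.15, adjusted p = 0.00276). Acpp, a further enzyme that acts on AMP, was highest in diestrus as Nt5e was, with 37.9 and 48.4 CPM there and 16.4 to 23.6 CPM elsewhere (adjusted p = 0.00853 across the stages).

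Of the genes listed for adenosine removal and transport, Ada, Pnp and Slc28a3 had their highest mean in proestrus and their lowest in diestrus. Ada, adenosine deaminase, had 77.5 and 57.6 CPM in proestrus, against 6.93 and 14.1 CPM in diestrus (2.68 ± 0.33, adjusted p = 0.00366 by edgeR). Pnp, the purine nucleoside phosphorylase, had 59.9 and 50.7 CPM in proestrus, against 27.0 and 15.8 CPM in diestrus (1.37 ± 0.26, adjusted p = 0.0141; 0.0830 without proestrus library 1). Pnp shares 18% of its exon bases on the same strand with Gm49342, so its count is uncertain. Slc28a3, which carries nucleosides into cells with sodium, had 167 and 129.5 CPM in proestrus and 136 and 117 CPM in estrus. In metestrus it had 20.9 and 23.0 CPM, and in diestrus 20.6 and 10.1 CPM (metestrus over estrus -2.53 ± 0.33, adjusted p = 0.00323). Epithelial marker sums were also high in proestrus and estrus. Pnp was high in proestrus only, with 32.3 and 25.9 CPM in estrus, against 24.0 and 26.2 CPM in metestrus (adjusted p = 0.545 by edgeR). The part of epithelial cells in Ada, Pnp and Slc28a3 was not tested.

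The equilibrative nucleoside transporters had lower means in proestrus and estrus than in metestrus and diestrus. Slc29a1 had 28.5 and 40.0 CPM in proestrus, against 128 and 101 CPM in diestrus (-1.74 ± 0.25, adjusted p = 0.00578 by edgeR). Slc29a2 had 10.3 and 11.3 CPM in metestrus, against 3.30 and 4.44 CPM in estrus (1.48 ± 0.24, adjusted p = 0.00567). Adk, adenosine kinase, had 58.0 and 55.1 CPM in metestrus, against 41.0 and 40.0 CPM in estrus (0.48 ± 0.10, adjusted p = 0.0143), a difference that missed the threshold when any 1 library of those stages was left out (0.0636 to 0.0787). The calls of Adk and Pnp across the stages (adjusted p = 0.0194 and 0.0197) also ended without single libraries. For Adk these were either estrus or either metestrus library (0.0592 to 0.0772), and for Pnp either proestrus or either metestrus library (0.0573 to 0.102).

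Of the other P2X genes, P2rx6, a subunit that forms channels poorly by itself, peaked in estrus at 42.3 and 42.2 CPM, against 9.85 and 7.79 CPM in proestrus (2.26 ± 0.16, adjusted p = 0.00176 by edgeR). It had 17.3 and 15.9 CPM in metestrus and 18.6 and 19.1 CPM in diestrus. Its highest libraries were thus those of estrus, as for P2rx4 and P2rx7. Of the exon bases of P2rx6, 13.9% lie on the opposite strand of Slc7a4. P2rx2, a channel subunit known from neurons, had 38.9 CPM in diestrus library 1 and 0.385 to 2.06 CPM in the other 7. It was called across the stages (adjusted p = 0.0400 by edgeR) but in 0 of the 6 pairs of stages. The call across the stages was lost without any single library of proestrus, estrus or metestrus, and was kept without either diestrus library. With 1 library left out at a time, the log2 fold change of diestrus over metestrus ran from 1.37 to 6.32.

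**Figure D4:**
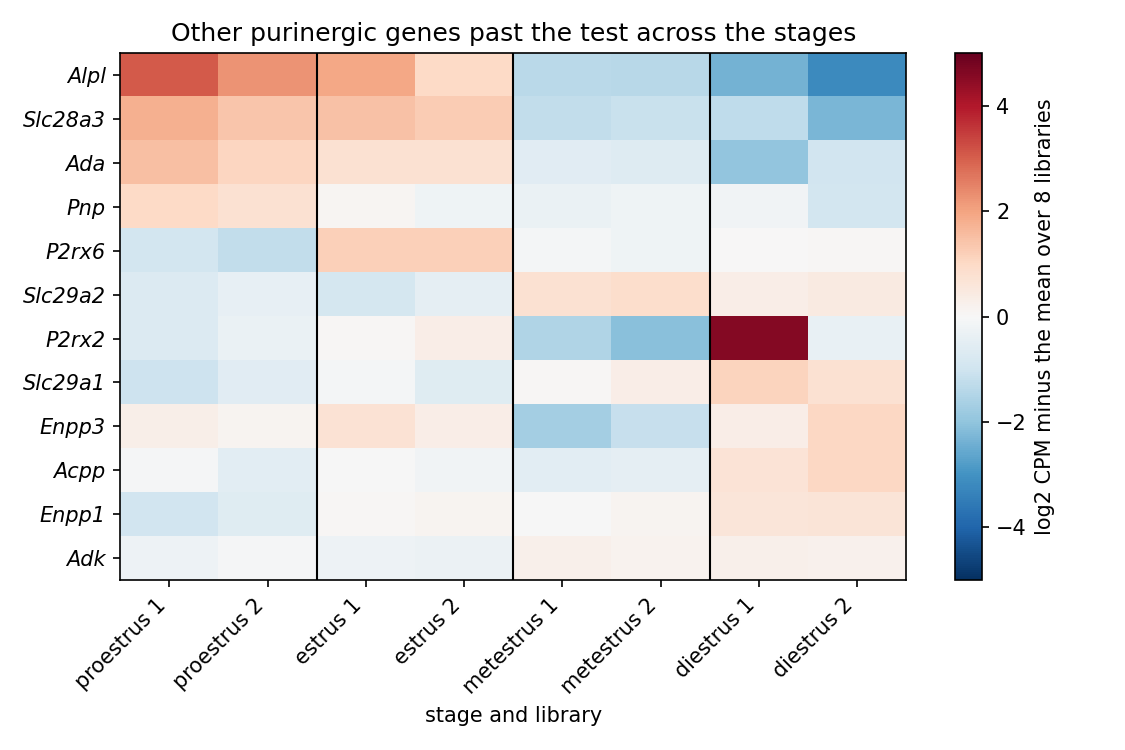
Log2 CPM minus its mean over the 8 libraries for the 12 other purinergic genes past the test across the stages, one row per gene and one column per library, red above and blue below the mean. Alpl, Slc28a3, Ada and Pnp are highest in proestrus, while P2rx2 reaches 4.57 in diestrus library 1 and lies at or below 0.34 in the other libraries.

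For the 4 genes of the 10 with the widest range, the genes of nearest course were sought among 11665 protein-coding genes with a mean of 5 CPM or more. The measure was the root mean square difference of centred log2 CPM over the 8 libraries, with 0 meaning an identical course. Nearest to P2ry14 was Ramp3, which helps receptors of the calcitonin family reach the surface, at 0.464. Ramp3 had stage means of 330 CPM in proestrus and 30.3 CPM in estrus, then 236 CPM in metestrus and 35.1 CPM in diestrus. Plk2, a kinase gene (0.608), and Ano5 (0.628) followed. Nearest to Nt5e was Rgs2, a regulator of G protein signalling, at 0.318, with stage means of 105.5 CPM in proestrus and 287 CPM in estrus, then 67.4 CPM in metestrus and 415 CPM in diestrus. Sult1a1 (0.363) and Sesn1 (0.496) came next. P2ry2 lay nearest to the epithelial adhesion gene Epcam (0.166), then to Arhgef16 (0.196) and Arap2 (0.210). The nearest genes to Adora1 were Abcc3 (0.633), Dkk3 (0.686) and Col20a1 (0.732).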

How the data were processed

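Polyadenylated RNA of mouse uterus was sequenced from stranded libraries, per the labels. The deposited values are raw counts per Ensembl gene, made by the authors with STAR and featureCounts (Subread) on GRCm38 (mm10), per the submitters' processing notes; their versions, the annotation release and the use of strand in counting: not given in the sources used here. Whole numbers with different totals, 17863546 to 21896786, fit that unit.

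Symbols and positions came from GENCODE M21, which holds 52058 of 52308 identifiers; the others had at most 0.0107% of a library's counts. The test was the quasi-likelihood F test of edgeR 4.0.16 (R 4.3.3) on all 8 libraries, with a mean for each stage and 4 residual degrees of freedom. TMM factors ran from 0.8975 to 1.111, and filterByExpr kept 18114 genes and left 34194 untested. The 3 stage differences were tested together and then each of 6 pairs, two-sided, at a Benjamini-Hochberg adjusted p under 0.05. Each SE is the absolute log2 fold change divided by the root of F. The search for like courses used log2 CPM with a prior count of 2. The procedure was tested on simulated data.

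The 10 genes, the lists and the tests were chosen with earlier results of these data known. Named were all 10 genes, those of 32 further pathway genes past the test across the stages (at most 12, by p) and the 3 genes of nearest course to the 4 genes of widest range. P2ry1, P2ry12, P2ry13, P2ry4, Entpd4, Slc28a1 and Panx3 were named after their values were seen. Alternatives were DESeq2 1.42.0, its size factors in edgeR, limma-voom (limma 3.58.1), 2 filters, fits to 4 libraries, a replicate block and each library left out. Fits without a library assume that the lone library of its stage varies like the others.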

Additional observations from a re-analysis of the deposited data

How the results depend on the processing

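Each stage has 2 libraries, and the cause of each change below was not tested. How many of all tested genes were called in each of these settings was not counted. The counts below therefore cannot tell a change of the listed genes from a shift over all genes. Leaving out 1 library at a time moved the number of the 10 genes called across the stages between 5 and 9, in estrus over proestrus between 2 and 6, in metestrus over estrus between 3 and 6, in diestrus over metestrus between 0 and 5, in proestrus over diestrus between 3 and 5, in estrus over diestrus between 1 and 6, and in metestrus over proestrus between 0 and 6. For the other purinergic genes the ranges, in the same order, were 8 to 17, 1 to 5, 5 to 12, 0 to 7, 7 to 12, 5 to 12 and 0 to 12.

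By DESeq2 the 10 genes gave 5 calls in proestrus over diestrus and 5 in metestrus over proestrus, and the other genes 5 in estrus over proestrus and 5 in diestrus over metestrus. With no filter these were 5 of the 10 genes in metestrus over proestrus, and 5 and 3 other genes in estrus over proestrus and diestrus over metestrus. With only the 4 libraries of a pair, none of the 10 genes (0) and 0 others were called in diestrus over metestrus, 1 and 5 in proestrus over diestrus, and 5 others in estrus over diestrus. With the replicate number as a block, the other genes gave 4 calls in estrus over proestrus and 0 in diestrus over metestrus, and Nt5e passed in estrus over proestrus (0.0336), estrus over diestrus (0.0165) and metestrus over proestrus (0.0363); same-numbered libraries deviated with correlations from -0.093 to 0.145, so the numbers were not taken to pair samples.

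Differences that had not been called changed sign without 1 library, with log2 ranges of -0.53 to 0.88, -1.96 to 0.40 and -0.59 to 1.68 for Adora1 (metestrus over estrus, diestrus over metestrus, estrus over diestrus), -0.04 to 0.53 for Adora2b (metestrus over estrus), -0.33 to 0.16 and -0.20 to 0.29 for Entpd1 (estrus and proestrus over diestrus), -0.09 to 0.56, -0.49 to 0.16 and -0.02 to 0.16 for Entpd2 (estrus over proestrus, metestrus over estrus, metestrus over proestrus), -0.08 to 0.40 for P2rx7 and -0.12 to 0.73 for P2ry6 (proestrus over diestrus), and -0.53 to 0.05 for P2ry2 (estrus over proestrus). For the 10 genes, DESeq2's size factors, limma-voom and a filter at 1 CPM changed no call.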

Other observations

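Slc17a9, the vesicular carrier of ATP, had 15.0 CPM in diestrus library 1 and 1.06 to 4.23 CPM in the other 7 libraries. Entpd8, a surface enzyme that cuts ATP, had 0.0900 CPM in that library and 3.26 to 15.7 CPM in the others. Neither was called across the stages by edgeR (adjusted p = 0.392 and 0.401). Diestrus over metestrus changed sign with the library left out. Its log2 fold change ran from -1.07 to 2.76 for Slc17a9 and from -5.36 to 0.32 for Entpd8. A fit without diestrus library 2 keeps only the library in which these genes stand out, so its calls are not read. Both genes were named after their values were seen.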
